A study of Mus musculus with 6 samples.

Results

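The CXC chemokines described here are Cxcl1, Cxcl2, Cxcl9, Cxcl10, Cxcl11, Cxcl12, Cxcl13, Cxcl14 and Cxcl16, 9 of the 18193 genes with a probe set of their own. These genes were chosen by symbol, with earlier results of these data known. They were read by 18 of the 45101 probe sets of a whole-genome expression array. Total RNA from the heart ventricles of 6 mice was hybridised, 1 array per mouse. The 3 Trex1 KO mice lack Trex1, the main cytosolic DNA exonuclease, and the 3 Trex1 WT mice carry the intact gene. All 6 mice were also knocked out for Rag2, a gene without which mature T and B cells do not form. Every Trex1 KO mouse had a Trex1 WT littermate, and the 3 pairs are called A, B and C. The sources used here do not give age, sex, strain or the form of the Trex1 and Rag2 alleles. Values of a genotype are listed in the order of pairs A, B and C throughout. The question put to these genes was whether the members known to be induced by interferon, Cxcl9, Cxcl10 and Cxcl11, differed between genotypes in another way than the other 6.

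CXC chemokines are small secreted proteins that bind G protein-coupled receptors and guide leukocytes into tissue. Cxcl9, Cxcl10 and Cxcl11 share the receptor Cxcr3, carried by activated T cells and natural killer cells, and interferons switch on their genes through STAT and IRF factors. Cxcl1 and Cxcl2 draw neutrophils through Cxcr2 and respond to NF-kappaB, whereas Cxcl12 is made steadily by stromal and endothelial cells and retains leukocytes and progenitors through Cxcr4. Cxcl13 guides B cells through Cxcr5, Cxcl16 is a membrane-bound ligand of Cxcr6, and Cxcl14 is a constitutive chemokine of epithelium and connective tissue. Ventricle tissue holds cardiomyocytes, fibroblasts, endothelial cells and resident macrophages together.

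The members differ in position and in the letters upstream of their start sites. In RefSeq's gene table for GRCm38.p6 (strain C57BL/6J), 6 lie on chromosome 5, with Cxcl10 and Cxcl11 next to each other and Cxcl9 separated from Cxcl10 by 1 gene. Cxcl1 and Cxcl2 are neighbours elsewhere on that chromosome. Cxcl12 lies on chromosome 6, Cxcl14 on 13 and Cxcl16 on 11. The same table lists Cxcl11 as a transcribed pseudogene in C57BL/6J. RefSeq promoter windows, from 250 bases before to 50 after a transcript start, were at hand for 7 members, all but Cxcl11 and Cxcl16. They were searched on both strands for GAAA followed by any 2 bases and a further GAAA, the core of the interferon-stimulated response element (ISRE), for TTCNNNGAA, the interferon-gamma activated sequence (GAS), and for the NF-kappaB consensus. The windows of Cxcl10 and Cxcl9 are printed whole, 5′ to 3′ on the strand of the gene, because these members passed the test in the fit with littermate pair as a block. The matched stretches of Cxcl1, Cxcl2 and Cxcl14, which did not pass, follow with the bases around them. Capitals mark the matched motifs.
Cxcl10 (GRCm38.p6, chr5:92348840-92349139, minus strand): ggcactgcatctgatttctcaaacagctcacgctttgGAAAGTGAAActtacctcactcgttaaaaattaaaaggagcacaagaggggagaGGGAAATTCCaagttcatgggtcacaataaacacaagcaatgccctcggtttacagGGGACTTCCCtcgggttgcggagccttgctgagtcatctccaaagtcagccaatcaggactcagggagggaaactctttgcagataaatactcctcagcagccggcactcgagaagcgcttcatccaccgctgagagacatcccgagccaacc
Cxcl9 (GRCm38.p6, chr5:92328030-92328329, minus strand): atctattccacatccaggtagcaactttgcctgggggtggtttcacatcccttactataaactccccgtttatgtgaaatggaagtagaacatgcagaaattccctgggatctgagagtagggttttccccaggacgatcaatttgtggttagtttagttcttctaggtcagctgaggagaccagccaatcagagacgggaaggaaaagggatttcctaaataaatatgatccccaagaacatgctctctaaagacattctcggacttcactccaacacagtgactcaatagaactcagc
Cxcl1 (GRCm38.p6, chr5:90891149-90891209, plus strand): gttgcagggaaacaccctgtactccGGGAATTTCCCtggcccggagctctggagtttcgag
Cxcl2 (GRCm38.p6, chr5:90903777-90903837, plus strand): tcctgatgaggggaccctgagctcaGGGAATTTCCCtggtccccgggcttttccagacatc
Cxcl14 (GRCm38.p6, chr13:56296689-56296767, minus strand): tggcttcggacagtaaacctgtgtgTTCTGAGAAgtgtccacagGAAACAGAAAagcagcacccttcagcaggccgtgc

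In the Cxcl10 window the ISRE core ran from -213 to -204 relative to the start on which the window was built, and the NF-kappaB matches began at -159 and -103. The Cxcl9 window held none of the 3 motifs in these spellings, which says nothing of the factors themselves. In Cxcl1 and Cxcl2 the NF-kappaB matches on the plus and minus strands overlap by all but 1 base, so each gene has 1 such place. Cxcl14 had a GAS match, which reads on both strands, and an ISRE core running from -172 to -163. The windows of Cxcl12 and Cxcl13 held none. Over all 32851 windows, 3.44% held the ISRE core, 8.30% the GAS and 4.51% the NF-kappaB consensus.

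The deposited values are MAS5 signals on a linear scale, which MAS5 computes from the probe pairs of each set. Array controls for bacterial transcripts, which the tissue does not make, gave signals up to 69.8, and a signal at or below that level is treated as near background. The labels were checked first on the targeted gene. The probe set annotated to both Atrip and Trex1 gave 9.45, 20.6 and 34.2 in Trex1 KO, against 714, 340.1 and 887 in Trex1 WT (log2 difference -4.10, limma adjusted p = 0.00109). The 3′ to 5′ signal ratio of Actb is a sign of RNA integrity. It lay between 1.60 and 1.68 in Trex1 KO and between 1.80 and 2.29 in Trex1 WT, with no overlap. The same ratio of Gapdh did overlap, at 0.849, 0.885 and 0.841 in Trex1 KO, against 0.904, 0.925 and 0.850 in Trex1 WT. The signal of 18S ribosomal RNA was 2834, 1907 and 798 in Trex1 KO, against 12811, 13708 and 924 in Trex1 WT, so that Trex1 WT A and B stood apart from the other 4 arrays. In the test over 27022 probe sets, 66 passed a Benjamini-Hochberg adjusted p of 0.05 in limma, of which 59 were higher (0.218%) and 7 lower (0.0259%) in Trex1 KO. With littermate pair as a block, 105 were higher (0.389%) and 16 lower (0.0592%).

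Cxcl10, the interferon-induced ligand of Cxcr3 also known as IP-10, was higher in the Trex1 KO heart of every litter. Its single probe set read 241, 650.2 and 433 in Trex1 KO, against 98.9, 203 and 99.0 in Trex1 WT. The lowest Trex1 KO heart lay above the highest Trex1 WT heart, and pair B was the highest pair in both genotypes. Means were 441 ± 205 in Trex1 KO and 134 ± 59.9 in Trex1 WT (SD, n = 3 each). The log2(signal + 16) difference, Trex1 KO minus Trex1 WT, was 1.58 (95% interval 0.77 to 2.38), a 2.98-fold difference on that scale. It did not pass without the block (limma adjusted p = 0.261) and rose past the threshold with littermate pair as a block (interval 1.11 to 2.04, limma adjusted p = 0.0137). Littermates differed by 1.16, 1.61 and 1.97.

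Cxcl9, the ligand also called MIG, whose gene responds mainly to interferon gamma, showed the same order of groups with a smaller difference. Its brighter probe set gave 924, 2227 and 979 in Trex1 KO, against 563, 893 and 489.6 in Trex1 WT. The groups did not overlap, but Trex1 KO A was barely above Trex1 WT B, its nearest value in the other group. The log2 difference was 0.99 (SE 0.32, 95% interval 0.27 to 1.71), and the within-pair differences were 0.70, 1.30 and 0.98. It missed the threshold without the block (limma adjusted p = 0.712) and rose in the blocked fit (SE 0.13, limma adjusted p = 0.0151). Without Trex1 KO B the unblocked difference was 0.59. The dimmer Cxcl9 probe set gave 154, 350.1 and 126 in Trex1 KO, against 86.4, 217 and 165 in Trex1 WT, and these overlap. There the difference was 0.34 (limma adjusted p = 0.965, and 0.764 with the block), with pair C in the opposite direction at -0.35.

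**Figure D1:**
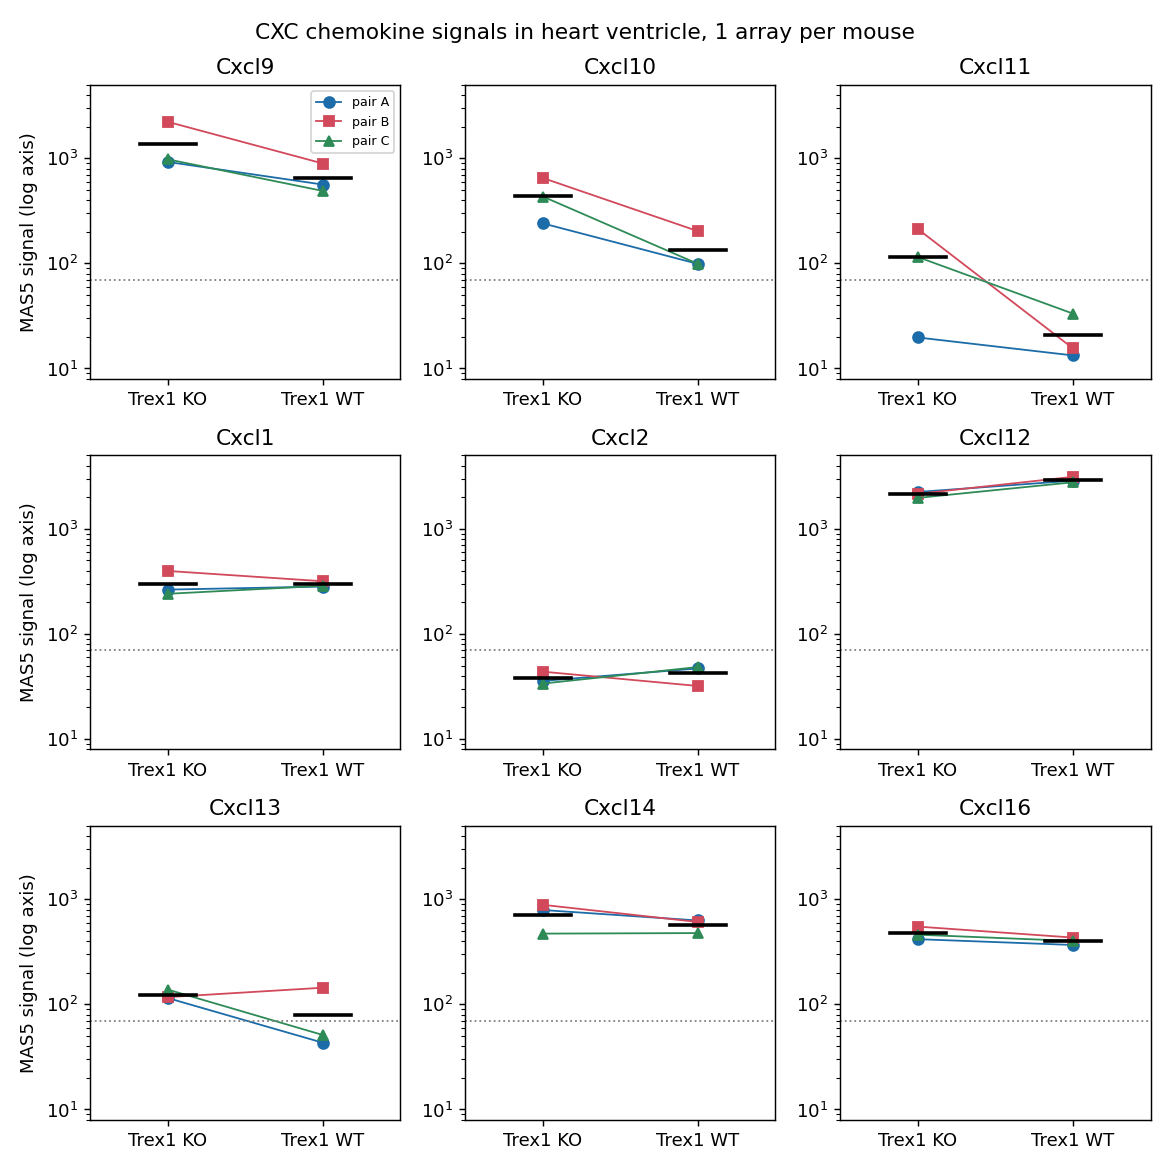
MAS5 signal (vertical log axis) of each chemokine's brightest probe set in Trex1 KO and Trex1 WT hearts; lines join littermates, black bars are means of 3 arrays, and the dotted line is the highest bacterial control, 69.8. Cxcl9 and Cxcl10 lie higher and Cxcl12 lower in Trex1 KO in all 3 pairs with no overlap, Cxcl2 lies under the dotted line on every array, and Cxcl11 exceeds it in Trex1 KO B and C alone.

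Cxcl11, known as I-TAC, is the third Cxcr3 ligand and fell below the filter on dim probe sets, so it was not tested. Its brighter probe set gave 19.7, 212 and 115 in Trex1 KO, against 13.3, 15.5 and 33.3 in Trex1 WT. Trex1 KO B and C stood above the highest bacterial control, while Trex1 KO A and all 3 Trex1 WT hearts stood below it, and Trex1 KO A lay within the Trex1 WT range. The log2(signal + 16) difference was 1.52, and 0.29, 2.86 and 1.41 between littermates. With signals this low its size depends on the added constant, and it was 1.99 with 1 added and 0.93 with 64 added. Without Trex1 KO B it was 0.94, and without pair B it was 0.85. The other Cxcl11 probe set gave 28.2, 35.6 and 19.1 in Trex1 KO, against 6.002, 48.0 and 23.4 in Trex1 WT, all under the highest bacterial control. Fitted with no filter, the brighter probe set had a limma adjusted p of 0.910.

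In the unblocked test 0 of the 7 tested members passed in limma in either direction, where 0.244% of all probe sets did (0.218% higher and 0.0259% lower), and 3 members (Cxcl9, Cxcl10 and Cxcl12) had an unadjusted p under 0.05, as did 5.44% of all probe sets. With littermate pair as a block 2 of 7, Cxcl9 and Cxcl10, rose and 0 fell, where 0.448% of all probe sets were called (0.389% higher and 0.0592% lower). The unadjusted p of 3 members was under 0.05 in the blocked fit, as was that of 8.26% of all probe sets. The 3 Trex1 KO arrays lay above the 3 Trex1 WT arrays for 2 tested members and below them for 1, where 10.6% of all probe sets had groups that did not overlap (5.57% above and 4.99% below). All 3 Trex1 KO hearts were higher than their littermates for 4 members, Cxcl9, Cxcl10, Cxcl11 and Cxcl16, and lower for 1, Cxcl12, where 14.2% and 15.3% of all probe sets were. Both blocked calls remained when any 1 littermate pair was left out (limma adjusted p from 0.00137 to 0.0313 for Cxcl9 and from 0.00316 to 0.0316 for Cxcl10). Such fits keep fewer residual degrees of freedom than the blocked fit over all pairs, so their p-values lean on variance pooled across probe sets. They are not independent replication. Both calls were lost in the blocked fit without an intensity trend, where the limma adjusted p was 0.497 for Cxcl9 and 0.316 for Cxcl10. With the Actb ratio as a covariate and no block the difference was 1.43 for Cxcl9 and 2.13 for Cxcl10 (limma adjusted p = 0.796 and 0.618).

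**Figure D2:**
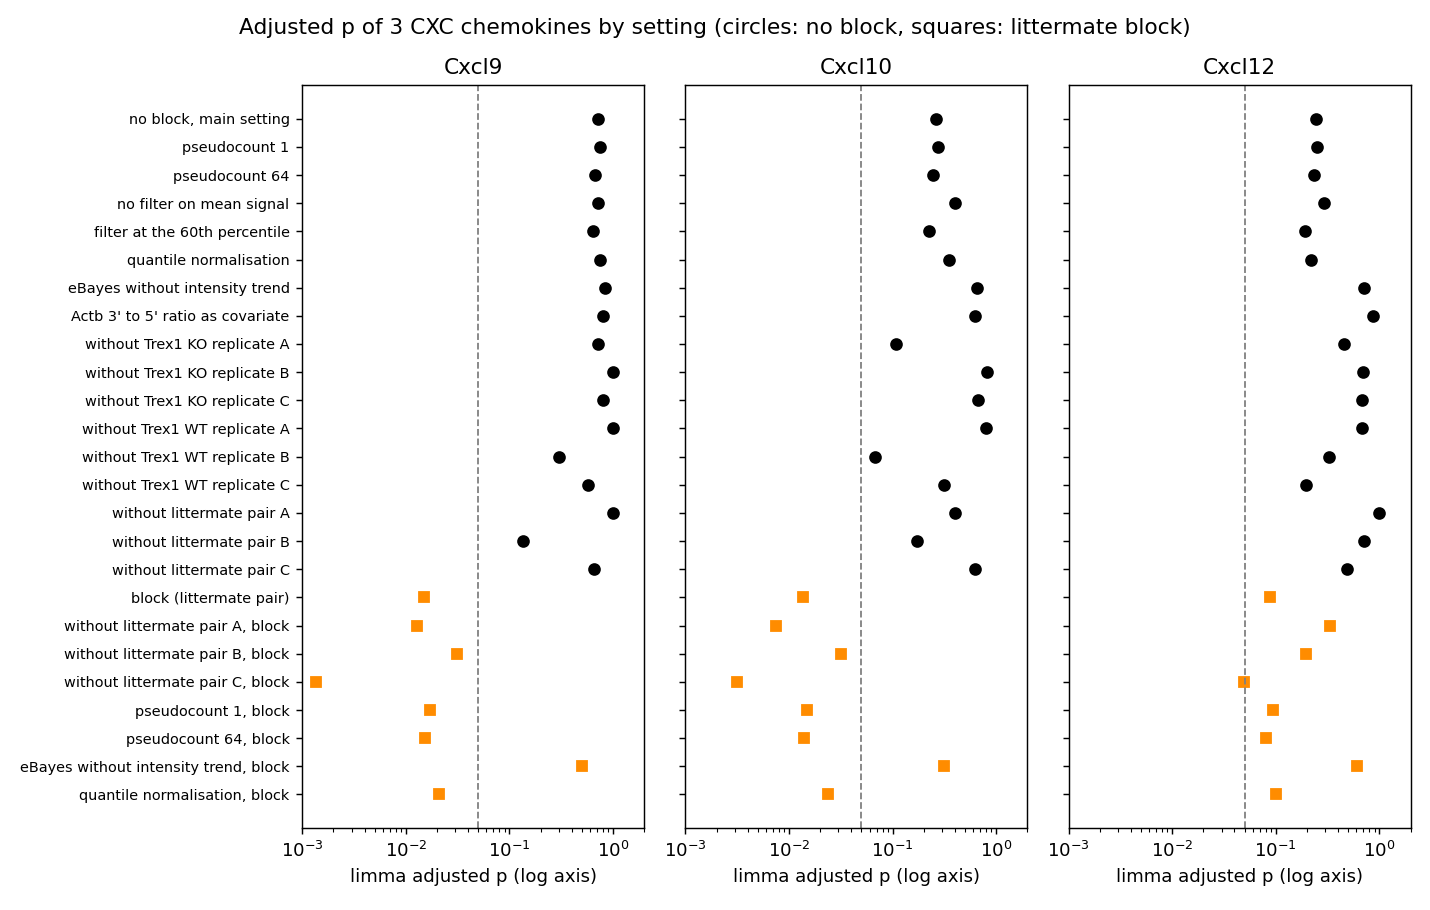
Limma adjusted p (horizontal log axis) of Cxcl9, Cxcl10 and Cxcl12 under each setting (rows), with circles for fits without the block and squares for fits with littermate pair as a block; the dashed line is 0.05. Cxcl9 and Cxcl10 lie left of the line in each blocked fit except that without an intensity trend, no unblocked fit does, and Cxcl12 crosses it in 1 blocked fit, at 0.0489 without littermate pair C.

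The interferon-induced members had larger differences than the other 6 over all arrays, though single members overlapped in 2 of the 3 pairs. The median log2 difference was 1.52 over Cxcl9, Cxcl10 and Cxcl11 and 0.11 over the other 6 members, beside -0.01 over all 27022 tested probe sets. The interferon-induced median was the value of Cxcl11, which was not tested. Over the tested members alone, a setting added after seeing the data, the medians were 1.29 and 0.23, a gap of 1.05. On the brightest probe sets the lowest interferon-induced member, Cxcl9 at 0.99, was above the highest of the others, Cxcl13 at 0.69. Over every probe set the ranges overlapped, with 0.18 for the dimmer Cxcl11 probe set and 0.71 for the dimmer Cxcl14 probe set. By pair, the interferon-induced median was 0.70, 1.61 and 1.41 in A, B and C, and the median of the others was 0.04, 0.31 and -0.13. The ranges overlapped in pair A, where Cxcl11 had 0.29 and Cxcl13 had 1.15, and in pair C, where Cxcl9 had 0.98 and Cxcl13 had 1.20. Pair B had no overlap, with 1.30 as the lowest interferon-induced value and 0.53 as the highest of the others. The gap between the medians was 1.40 over all arrays, 0.85 without pair B, 0.84 with 64 added to the signals and 0.83 over every probe set. It was not tested, because genes of 1 family are not replicates.

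**Figure D3:**
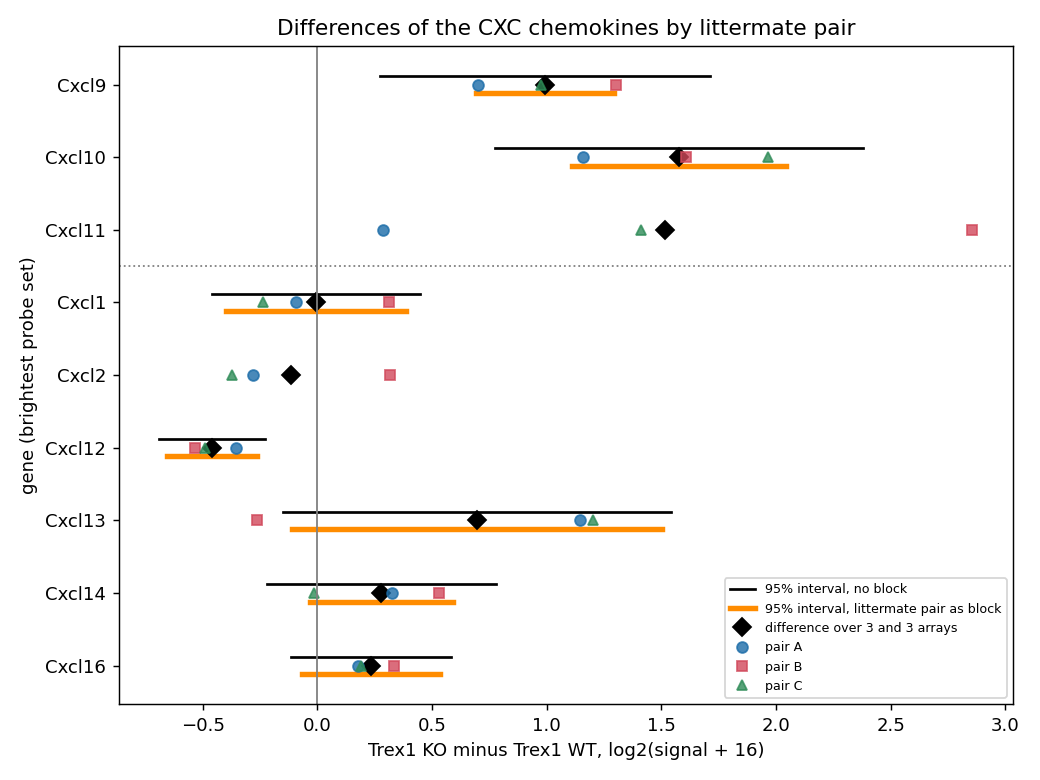
Log2(signal + 16) difference, Trex1 KO minus Trex1 WT (horizontal axis), of the brightest probe set of each chemokine, with interferon-induced members above the dotted line. Diamonds are differences over 3 and 3 arrays, coloured symbols the littermate pairs, and bars the 95% intervals without (thin) and with (thick) the littermate block; Cxcl11 and Cxcl2 were below the filter and have none. All 3 pairs lie right of 0 for Cxcl9, Cxcl10, Cxcl11 and Cxcl16 and left of it for Cxcl12.

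Among the neutrophil-attracting members, Cxcl1 had a difference near 0 and Cxcl2 was near background. The brightest of 3 Cxcl1 probe sets gave 264, 397 and 241 in Trex1 KO, against 282, 317 and 287 in Trex1 WT. The Trex1 KO values lay on both sides of the Trex1 WT range, with Trex1 KO B highest. The log2 difference was -0.01, and its 95% interval of -0.46 to 0.45 leaves room for a change of either sign (limma adjusted p = 0.9997). The remaining 2 probe sets of Cxcl1 had -0.21 and 0.05 (limma adjusted p = 0.962 and 0.996). Cxcl2 gave 35.7, 43.7 and 33.7 in Trex1 KO, against 46.9, 31.9 and 48.4 in Trex1 WT, below the highest bacterial control on all 6 arrays. A difference in Cxcl2 was not detectable at such signals.

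Cxcl12, the steady stromal ligand of Cxcr4, ran lower in the Trex1 KO heart of each pair. Its brightest probe set gave 2245, 2156 and 1972 in Trex1 KO, against 2876, 3128 and 2775 in Trex1 WT. The groups were narrow and did not overlap. Means were 2124 ± 139 in Trex1 KO and 2926 ± 182 in Trex1 WT (SD, n = 3 each). The log2 difference of -0.46 (95% interval -0.69 to -0.23) passed neither without the block (limma adjusted p = 0.246) nor with it (0.0874). The second probe set had 729, 727 and 843 in Trex1 KO, against 790.0, 994 and 915 in Trex1 WT, which overlap. Its difference was -0.22 (limma adjusted p = 0.955), lower in each pair. The third was dim, at 62.2 to 104 in Trex1 KO and 11.1 to 97.1 in Trex1 WT, and its difference of 0.58 (limma adjusted p = 0.956) had the opposite sign. In bulk tissue, fewer cells of a type and less RNA per cell cannot be told apart. The Actb ratio differed between the same groups, and with that ratio as a covariate the Cxcl12 difference was -0.33 (limma adjusted p = 0.864).

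Cxcl13, Cxcl14 and Cxcl16 had positive differences that did not pass. Cxcl13 gave 115, 117 and 138 in Trex1 KO, against 43.2, 144 and 51.1 in Trex1 WT. Trex1 WT B was the highest of the 6, and the Trex1 WT hearts of pairs A and C lay below the highest bacterial control. The difference of 0.69 (95% interval -0.15 to 1.54, limma adjusted p = 0.955) therefore had 1 pair against it, B at -0.26. Its other probe set was below the highest bacterial control on all arrays.

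The array annotation gives both Cxcl14 probe sets the same source sequence. The brighter gave 792, 887 and 472 in Trex1 KO, against 629, 609 and 478 in Trex1 WT, a difference of 0.28 (95% interval -0.22 to 0.78, limma adjusted p = 0.955). The other gave 523, 659 and 317 in Trex1 KO, against 351, 361 and 185 in Trex1 WT. There the Trex1 KO heart was higher in each pair, by 0.55, 0.84 and 0.73, and pair C was the lowest pair in both genotypes. That difference of 0.71 passed neither without the block (limma adjusted p = 0.891) nor with it (0.126).

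Cxcl16, which also acts as a scavenger receptor on macrophages, gave 418, 551 and 461 in Trex1 KO, against 368, 433 and 402 in Trex1 WT. The Trex1 KO heart was higher in each pair, yet Trex1 KO A fell inside the Trex1 WT range. The difference was 0.23 (95% interval -0.11 to 0.58, limma adjusted p = 0.955), and its other probe set had 0.16 (limma adjusted p = 0.970).

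Of the 6 CXC ligands outside the 9, none passed, and 3 were bright enough to test. Pf4, a platelet chemokine also made by macrophages, had 2006 ± 242 in Trex1 KO and 2099.8 ± 410.1 in Trex1 WT (SD, n = 3 each, log2 difference -0.05, limma adjusted p = 0.986). Ppbp, another platelet chemokine, had 502, 1337 and 521 in Trex1 KO, against 616, 698 and 358 in Trex1 WT, with Trex1 KO B far above the rest (0.39, limma adjusted p = 0.956). Cxcl17, a mucosal chemokine, had a difference of 0.18 (limma adjusted p = 0.972). Cxcl3, Cxcl5 and Cxcl15 lay at or below 67.5 on every array. None of the 3 tested ligands had an unadjusted p under 0.05 in either limma fit. Of all probe sets, 5.44% did without the block and 8.26% with it.

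Among the CXC receptors, 5 of 7 with a probe set were tested and 0 passed in limma in either fit. Without the block 0 had an unadjusted p under 0.05, and with it 1 had, beside 5.44% and 8.26% of all probe sets. Cxcr3, the receptor of the interferon-induced ligands, had 144, 171 and 122 in Trex1 KO, against 85.4, 122 and 140.5 in Trex1 WT, which overlap (0.31, limma adjusted p = 0.955). Cxcr6, the receptor of Cxcl16 on natural killer and T cells, had larger differences. Its brighter probe set had 114, 65.7 and 165 in Trex1 KO, against 65.3, 10.9 and 83.4 in Trex1 WT, higher in each pair by 0.67, 1.60 and 0.86. The difference of 1.05 did not pass (95% interval -0.09 to 2.18, limma adjusted p = 0.943, and 0.450 with the block). The second Cxcr6 probe set, below the filter, gave 32.2, 48.8 and 85.1 in Trex1 KO, against 1.22, 4.20 and 4.92 in Trex1 WT. These groups did not overlap, though 1 of the 6 signals exceeded the highest bacterial control. Cxcr6 lies on chromosome 9, which also holds Trex1.

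Cxcr4, the signalling receptor of Cxcl12, had 241 ± 62.9 in Trex1 KO and 280.3 ± 23.7 in Trex1 WT (SD, n = 3 each, log2 difference -0.23, limma adjusted p = 0.956). Ackr3, which takes up Cxcl12 without classical signalling, had 6514, 4988 and 5681 in Trex1 KO, against 6175, 7149 and 6599 in Trex1 WT (-0.22, limma adjusted p = 0.955). Pairs B and C were lower in Trex1 KO and pair A slightly higher. Ackr1, a chemokine sink of venules and red cells, had 0.16 (limma adjusted p = 0.972). Cxcr2 and Cxcr5, the receptors of neutrophils and B cells, lay below the highest bacterial control on all arrays.

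**Figure D4:**
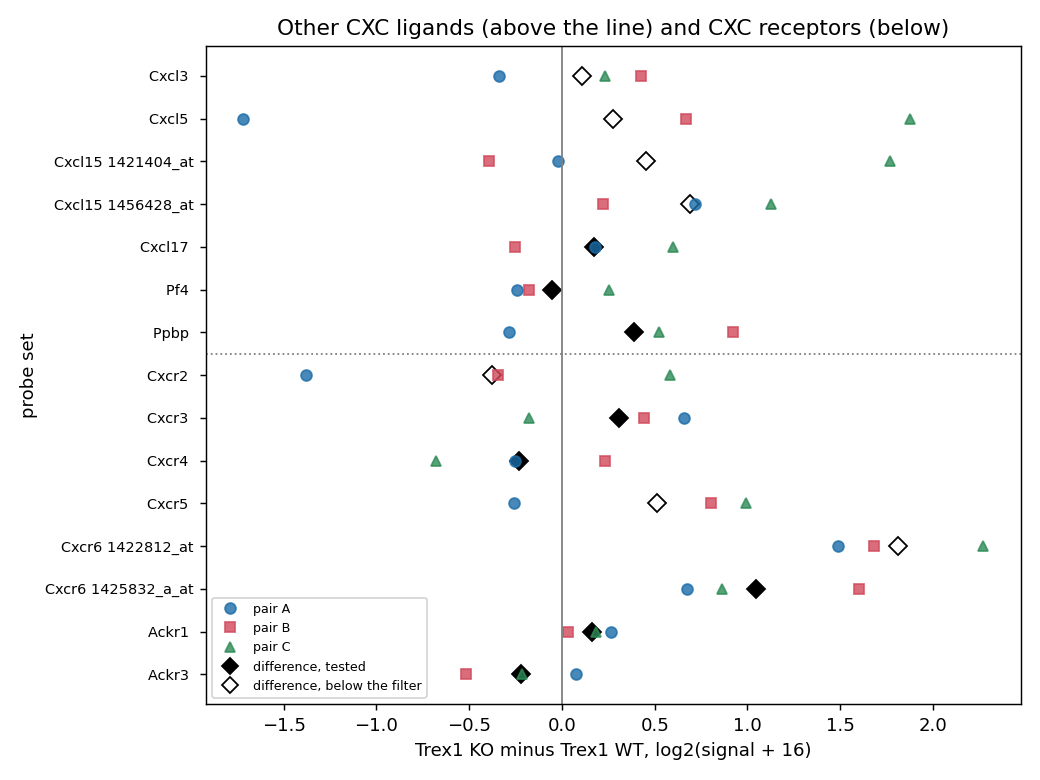
Log2(signal + 16) difference, Trex1 KO minus Trex1 WT (horizontal axis), for each probe set of the other CXC ligands and of the CXC receptors, with coloured symbols for littermate pairs and diamonds for the difference over 3 and 3 arrays (open where below the filter). The Cxcr6 probe sets, at 1.05 and 1.81, are the 2 largest differences and have all pairs right of 0.

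Genes upstream of these chemokines did not pass the test. Of 10 tested genes of interferon-gamma signalling 0 passed in limma with or without the block, and the median difference was 0.11. An unadjusted p under 0.05 was found for 2 without the block and 3 with it, beside 5.44% and 8.26% of all probe sets. Irf9 and Stat2, the partners in the transcription factor that binds the ISRE, had differences of 0.62 and 0.78 with groups that did not overlap (limma adjusted p = 0.222 and 0.613). Irf1, which is induced by interferon gamma, had 1061, 1371 and 1119.8 in Trex1 KO, against 1281, 1654 and 1418 in Trex1 WT, lower in each Trex1 KO heart (-0.29, limma adjusted p = 0.939). Ifng itself lay at or below 66.0 on every array.

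Of 13 tested NF-kappaB components and targets 0 passed in limma, and the median was 0.17. Their unadjusted p was under 0.05 for 1 without the block and 3 with it, beside 5.44% and 8.26% of all probe sets. Icam1, an adhesion molecule for leukocytes, had 605, 868 and 652 in Trex1 KO, against 548, 555 and 459.8 in Trex1 WT, with no overlap (0.42, limma adjusted p = 0.870). Ptgs2, the inducible prostaglandin synthase, had a difference of 1.22 (limma adjusted p = 0.927), on signals of 63.0, 160 and 80.8 in Trex1 KO, against 57.1, 60.6 and 3.15 in Trex1 WT. Of 14 tested proteoglycans and proteases that hold or cut chemokines 0 passed in limma. Here too 1 had an unadjusted p under 0.05 without the block and 3 with it, beside the same shares of all probe sets. In this list the smallest p were those of the proteoglycan Bgn at 0.34 and the basement membrane proteoglycan Hspg2 at -0.25 (limma adjusted p = 0.796 and 0.934).

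Markers of the cells that make or follow these chemokines were compared in the same fit. Of all probe sets, 5.44% had an unadjusted p under 0.05 in limma without the block and 8.26% with it. Myh6 and Tnnt2, which define cardiomyocytes, were between 43983 and 55846 on all arrays. The 9 natural killer markers had none that passed (limma, 1 at an unadjusted p under 0.05, and 2 with the block) and a median difference of 0.61. Their summed signal was 1101, 2904 and 1286 in Trex1 KO, against 895, 1204 and 774 in Trex1 WT, so Trex1 KO B, the heart with the highest Cxcl9, Cxcl10 and Cxcl11, was also highest here. Ncr1, which defines these cells, was dim, between 49.4 and 79.4. Its difference was -0.08 (limma adjusted p = 0.990), the 1 of the 9 below 0, while 8 were above. Gzma and Gzmb, granule proteases with the smallest p of the list, had 0.96 and 0.81 (limma adjusted p = 0.917 and 0.927).

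The 9 neutrophil markers summed to 665, 1830.5 and 1437 in Trex1 KO, against 835, 769 and 723 in Trex1 WT. Trex1 KO B and C were high and Trex1 KO A was not, and S100a8, which defines these cells, had 193, 678 and 603 in Trex1 KO, against 295, 242 and 199 in Trex1 WT. None of the 5 tested passed in limma. In each fit 1 had an unadjusted p under 0.05, beside 5.44% of all probe sets without the block and 8.26% with it. S100a9 had 0.89 and Csf3r 0.82 (limma adjusted p = 0.927 and 0.901). Ngp, a granule protein, had -0.59 (limma adjusted p = 0.955). Of the untested, dim markers, the granule protease Elane had 7.80, 21.0 and 22.0 in Trex1 KO, against 51.4, 88.0 and 86.7 in Trex1 WT, and the peroxidase Mpo had 82.7, 44.0 and 70.2 in Trex1 KO, against 21.5, 12.2 and 12.6 in Trex1 WT. These 2 differed in opposite directions, each with no overlap, and both were named after their values were seen. The 15 monocyte and macrophage markers summed to between 24908 and 32701 in Trex1 KO and between 20721 and 31095 in Trex1 WT. Of these 15, 0 passed in limma without the block, and 0 rose and 1 fell with it. An unadjusted p under 0.05 was found for 3 without the block and 7 with it, beside 5.44% and 8.26% of all probe sets. The median difference was 0.25, with 10 members above 0 and 5 below. Cd163, a haemoglobin scavenger receptor, fell with the block alone (-1.38, limma adjusted p = 0.0504, and 0.00855 with the block), while C1qa had 0.52 (limma adjusted p = 0.416). The defining markers Cd68 and Csf1r had 0.20 and -0.15 (limma adjusted p = 0.956 and 0.961). Fibroblast and mural markers, of cells that make Cxcl12, summed to between 69098 and 78004 in Trex1 KO and between 66466 and 86899 in Trex1 WT, and endothelial ones to between 14670.5 and 17470 in Trex1 KO and between 14684 and 19175 in Trex1 WT. In these 2 lists 0 of 10 and 0 of 9 passed in limma with or without the block. Without the block 2 and 1 had an unadjusted p under 0.05, and with it 5 and 2. The shares over all probe sets were 5.44% without the block and 8.26% with it. The median difference was -0.10 over the fibroblast and mural list, with 4 members above 0 and 6 below, and 0.04 over the endothelial list, with 5 above 0 and 4 below. The pericyte marker Cspg4 and the mural receptor Pdgfrb had -0.48 and -0.39, and the endothelial receptors Tek and Kdr -0.36 and -0.27 (limma adjusted p from 0.810 to 0.934). The defining markers of the 2 lists had -0.32 for Pdgfra, 0.30 for Col1a1, 0.04 for Pecam1 and -0.26 for Cdh5 (limma adjusted p from 0.926 to 0.989). Of 8 lymphocyte markers 1, Cd8a, was bright enough to test (-0.29, limma adjusted p = 0.974), 5 lay below the highest bacterial control on all arrays, and the T cell marker Cd3e was at 21.9 or less. Nppa, the atrial natriuretic peptide, was the 1 cardiomyocyte marker of 10 that passed with the block (0.996, limma adjusted p = 0.126 without the block and 0.00886 with it), and the calcium channel gene Ryr2 had -0.10 (limma adjusted p = 0.968). The part of these cell types in the chemokine differences was not tested.

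The genes whose patterns over the 6 arrays lay closest to those of the more variable members were also listed. For each tested member with a range of at least 1 log2 unit, which leaves out Cxcl11 as below the filter, 12399 genes were ranked by the root mean square difference between the log2 profiles after each was centred on its own mean. Nearest to Cxcl10 were Ifi213, Mx1 and Rsad2, interferon-induced genes, at 0.28, 0.29 and 0.29 log2 units. Nearest to Cxcl9 were Ifi207, Ms4a6b and Ifi47, at 0.18, 0.21 and 0.23 log2 units. Ifi47, an interferon-inducible GTPase, had 1225, 1897 and 1391 in Trex1 KO, against 624, 949 and 560.02 in Trex1 WT, with pair B highest in both genotypes, as for Cxcl9. Nearest to Cxcl13 were Frzb, Zfp820 and Mlkl, at 0.19, 0.20 and 0.21 log2 units. These distances describe 6 arrays and carry no test.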

How the data were processed

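The deposited values are intensities, 1 per probe set and array, which the authors obtained with MAS5 (credited to the submitters' processing notes). For its version, settings and any genome build, the sources used here give nothing. Each array's mean, after trimming 2% at either end, was 499.8, so the intensities had been scaled before deposit and were not scaled again. No detection calls were used.

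Signals were transformed to log2(signal + 16), which understates changes of dim probe sets. The 27022 probe sets whose mean log2 value reached the 40th percentile of those that are not controls (6.13, a signal of 53.8) entered limma 3.58.1 under R 4.3.3 (lmFit, eBayes with an intensity trend, two-sided, Benjamini-Hochberg over all of them, threshold 0.05), with 4 residual degrees of freedom. The unblocked fit was tested on simulated data without a litter effect, and the blocked fit was not tested in that way. The series' design text pairs the animals as littermates. Over probe sets, each animal's deviations from its genotype mean correlated with those of its littermate at 0.151, 0.192 and 0.147, and at 0.0101 or less with those of other animals of the other genotype. Deviations within a genotype cancel out, so a positive correlation between littermates lowers the others in part by construction. The blocked fit has 2 residual degrees of freedom.

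Symbols came from the platform annotation, updated through RefSeq's gene table (GRCm38.p6). The brightest probe set with a single symbol stood for a gene. Named are all members, the ligands and receptors, Trex1, Irf1 and the 2 tested genes with the smallest p of each other list; a gene of the rule without a probe set was not analysed here, and markers that define a cell type are added. For tested members whose log2 signal ranged over at least 1 unit, the 3 tested genes with the nearest profiles are named, sex-linked genes left out. Other pseudocounts, filters and normalisation, an untrended fit, the Actb ratio as a covariate and the omission of arrays or pairs were tried. A planned search of the proteins was not run. Members and lists were chosen with earlier results of these data known. The p-values of the unblocked fit measure the spread between the 6 animals within their genotypes. Those of the blocked fit measure the spread of the differences within the 3 littermate pairs. In both, eBayes draws the variance of a probe set towards that of others, and the number of arrays limits the precision.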

Additional observations from a re-analysis of the deposited data

How the results depend on the processing

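Cxcl9 and Cxcl10 kept a positive difference and stayed short of the threshold in all unblocked settings tried. With the replicate block (littermate pair) 2 members passed, Cxcl10 at 1.58 and Cxcl9 at 0.99, and in settings added after seeing the data the blocked calls held with 1 added (1.69 and 1.01), with 64 added (1.31 and 0.94) and after quantile normalisation (1.55 and 0.99). Leaving out an array or a littermate pair gave 1.25 to 1.94 for Cxcl10, 0.59 to 1.24 for Cxcl9, -0.51 to -0.41 for Cxcl12 (passing in the blocked fit without pair C), 0.85 to 2.28 for Cxcl11 (lowest without pair B) and -0.21 to 0.13 for Cxcl1, whose sign turned. In the blocked fit without pair A, B and C, Cxcl10 was 1.79, 1.56 and 1.38 and Cxcl9 was 1.14, 0.84 and 1.001, Cxcl12 was -0.44 without pair C, and Cxcl1 turned to 0.037 without pair A and 0.11 without pair C. Other probe sets gave 0.58 for Cxcl12 and 0.054 for Cxcl1, both reversed, and 0.18 for Cxcl11. The gap between the medians was 0.84 with 64 added, 0.83 over every probe set and 0.85 to 1.82 with arrays or pairs left out. Over all probe sets, 105 were higher and 16 lower with the replicate block, 24 and 4 without the intensity trend and 8 and 1 when the Actb ratio entered the model. Leaving out an array or a pair gave 23 to 85 higher and 0 to 12 lower, with 33 higher without Trex1 KO B, 38 without Trex1 KO C, 23 without pair A and 34 without pair C. The block changed no call among the other members, the other ligands, the receptors or the 3 pathway lists. The cause of these shifts was not tested. Signals near background limit Cxcl2, Cxcl11 and Cxcl13.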
